A study of Danio rerio with 24 samples.

Results

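The GADD45 family (growth arrest and DNA damage inducible genes) was followed through zygotic genome activation in zebrafish (Danio rerio) embryos. Its members were taken as every gene identifier whose name in the Ensembl symbol table begins with gadd45 in any letter case, leaving out GADD45GIP1, a gene of another family that shares the letters. This gave 7 of the 32520 identifiers in the count tables: 2 carry the symbol GADD45A, 2 GADD45B and 3 GADD45G. The symbols follow the human spelling and do not separate the zebrafish gene copies, so each member is named by symbol and identifier. The family was chosen by a measured value, since GADD45B ENSDARG00000013576 was among the genes called between oligomycin and actinomycin D embryos at 3 hours post fertilization (hpf). Values from that contrast are therefore descriptions, and no test is given for that gene in any comparison that uses those libraries.

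GADD45 genes encode small acidic proteins with no known enzyme activity, which act by binding other proteins. In mammalian cells they bind and activate the kinase MAP3K4 at the head of the stress-activated MAP kinase relay, bind CDK1, PCNA and the CDK inhibitor encoded by CDKN1A, and have been linked to active DNA demethylation. They are induced quickly by stress and by growth or developmental signals, GADD45A being a classical target of the p53 protein. Before genome activation a zebrafish embryo lives on maternal RNA loaded into the egg. Maternal RNAs are there whether or not the embryo transcribes, whereas zygotic RNAs need transcription.

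Libraries were made from total RNA of whole wild-type embryos of the TLAB strain with the QuantSeq kit, which reads transcripts near their 3′ end. The 6 groups, with 4 libraries each, were untreated embryos at 3 and at 4 hpf, embryos with 1 µM oligomycin at 3 and at 4 hpf, and embryos with 10 µg/ml actinomycin D at 3 and at 4 hpf. Actinomycin D stops transcription, and oligomycin acts on the ATP synthase of mitochondria. Per the labels' treatment protocol the inhibitors were in the E3 medium from laying, while the series design speaks of injected actinomycin, so the route is unsettled. The design asks whether zygotic genes are activated in oligomycin embryos, with actinomycin D as the control without zygotic transcription. The labels do not say whether the libraries of a group came from separate clutches, so p-values measure only the spread between these libraries.

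Total counts ran from 1453642 to 3431533 per library, with a median of 2675171. Levels are counts scaled to a common library size (CPM) after TMM scaling, and 3 counts, the floor used here, are worth between 0.881 and 1.93 CPM depending on the library. All 8 markers of the maternal and blastula embryo were detected in each group, whereas of 5 markers of differentiated tissues MYL7, NEUROD1 and fabp10a had 0 counts in every library, hbae3 had 1 count, in untreated embryos at 3 hpf, and ins had between 1 and 5 counts summed over each group. The libraries fall into 4 sets by the numbers in their titles, 1 library of each group per set, and replicate numbers follow these sets. The titles number sets 1 and 2 in a first library series and sets 3 and 4 in a second. What sets and series mark is not stated. One library stood apart: in actinomycin D 4 hpf replicate 4 the summed level of 9 zygotic blastula genes was 56.8 CPM, against 2.08 to 4.64 CPM in the other replicates. Since tissue was taken whole, fewer cells with an RNA and less of it per cell cannot be told apart.

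Of the 7 members, 5 passed the filter on low counts and were tested among 11238 genes. The untested members, GADD45G ENSDARG00000016725 and GADD45G ENSDARG00000113103, summed to 18 and 1 counts over all libraries. The filter asked for about 10 counts in at least 4 libraries. GADD45A ENSDARG00000043581 reached 10 counts in every library only in untreated embryos at 4 hpf. It was thus tested through the group where it was highest, which limits what its calls against that group show. GADD45G ENSDARG00000019417 passed mainly through untreated libraries and had at most 3 counts in an actinomycin D library. This limits its calls against actinomycin D likewise. GADD45B ENSDARG00000013576 held the most counts of the family, 2231, followed by GADD45B ENSDARG00000027744 with 654, GADD45A ENSDARG00000104571 with 308, GADD45A ENSDARG00000043581 with 165 and GADD45G ENSDARG00000019417 with 142. In untreated and in oligomycin embryos, at both times, 2 members had every library at the floor. In actinomycin D embryos this was so for 6 members at 3 hpf and for 4 at 4 hpf. GADD45A ENSDARG00000104571 was the only member with every group above the floor in at least 1 library.

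**Figure D1:**
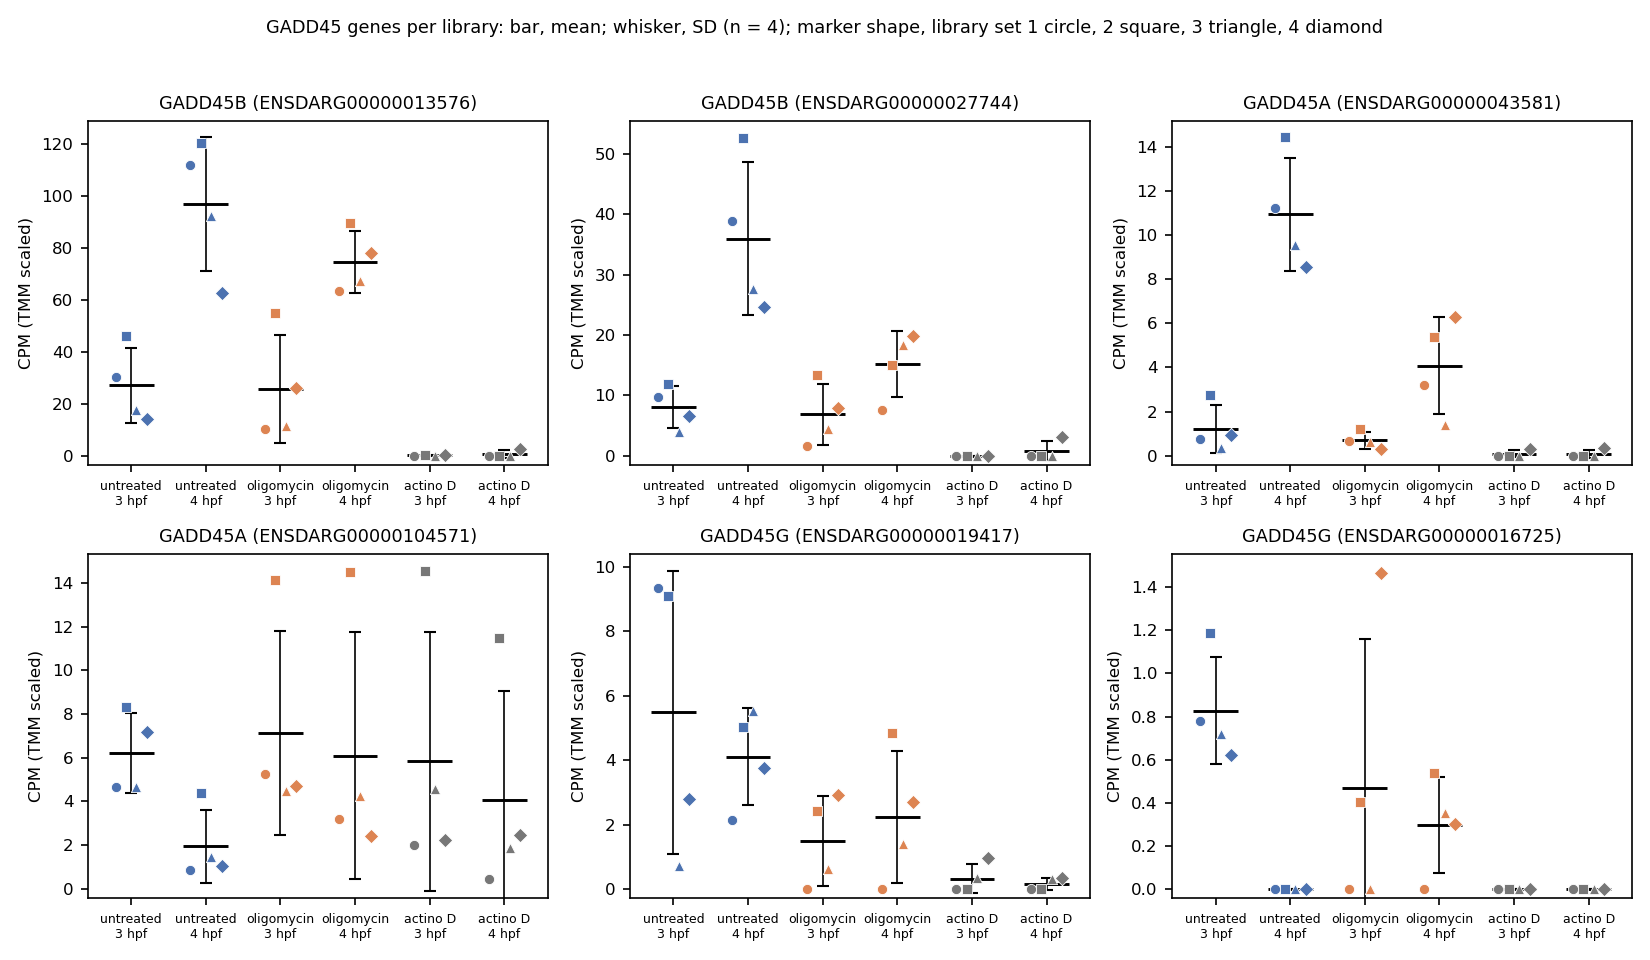
CPM of 6 GADD45 genes in each library by group (vertical axes differ between panels; bar, mean; whisker, SD, n = 4; marker shape, library set). Both GADD45B genes and GADD45A ENSDARG00000043581 are highest in untreated embryos at 4 hpf and near 0 in actinomycin D, while GADD45A ENSDARG00000104571 is present in all 6 groups and GADD45G ENSDARG00000016725 has at most 5 counts in a library.

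GADD45B, which in mammals is induced by NF-kappa B and TGF-beta signals, included the family member of highest CPM in untreated embryos. GADD45B ENSDARG00000013576 stood at 30.4, 45.9, 17.6 and 14.3 CPM in untreated replicates 1 to 4 at 3 hpf and at 112, 120, 92.0 and 62.7 CPM at 4 hpf. Every library at 4 hpf was above every library at 3 hpf. From a mean of 27.0 ± 14.3 CPM (SD, n = 4) it rose to 96.7 ± 25.6 CPM, a log2 difference of 1.84 ± 0.447 (SE; edgeR quasi-likelihood test, adjusted p 0.00413). The other copy, GADD45B ENSDARG00000027744, was at 9.73, 11.9, 3.96 and 6.54 CPM at 3 hpf and at 38.9, 52.7, 27.6 and 24.7 CPM at 4 hpf. Its libraries did not overlap between the times either. From 8.02 ± 3.48 CPM (SD, n = 4) it rose to 35.9 ± 12.7 CPM, by 2.15 ± 0.547 in log2 (SE; adjusted p 0.00626).

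The log2 differences of the GADD45A genes between 3 and 4 hpf had opposite signs. GADD45A ENSDARG00000043581 had 2, 7, 1 and 3 counts in the untreated libraries at 3 hpf and 26, 23, 26 and 25 counts at 4 hpf. All libraries at 4 hpf exceeded all those at 3 hpf, and the gene rose from 1.21 ± 1.07 CPM (SD, n = 4) to 10.9 ± 2.57 CPM, by 3.14 ± 0.512 in log2 (SE; edgeR adjusted p 8.32e-05). Without untreated 3 hpf replicate 2, the library with 7 counts, the rise was 3.83. GADD45A ENSDARG00000104571 was at 4.67, 8.30, 4.68 and 7.16 CPM at 3 hpf and at 0.864, 4.39, 1.47 and 1.03 CPM at 4 hpf. Each library at 4 hpf was below each at 3 hpf, but by a small margin for replicate 2, and the log2 difference of -1.80 (SE 0.820) did not pass (edgeR adjusted p 0.108). With the library set as a block, which the pairing check backs for these groups, the difference was -1.87 with an adjusted p of 0.00118. The gene was also called lower by edgeR with only these groups fitted (-1.82, adjusted p 0.0187). In the second library series alone it was called too (-2.26, adjusted p 0.0251).

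GADD45G genes, which in mammals respond to cytokines, were low. GADD45G ENSDARG00000019417 had 24, 23, 2 and 9 counts in untreated libraries at 3 hpf and 5, 8, 15 and 11 at 4 hpf. Both groups overlapped, and the log2 difference of -0.40 (SE 0.688) did not pass (edgeR adjusted p 0.721). GADD45G ENSDARG00000016725 had 2, 3, 2 and 2 counts at 3 hpf, all at the floor, and 0 in all libraries at 4 hpf, so no fold is given. GADD45G ENSDARG00000113103 had 1 count in 1 library of the series, untreated 3 hpf replicate 4. Over the family, in the fit to all groups, 3 of the 5 tested members were called higher at 4 than at 3 hpf in untreated embryos. None was called lower, where 12.8% of all tested genes were called higher and 14.6% lower. GADD45A ENSDARG00000043581, among the 3, had passed the filter through the untreated 4 hpf libraries. In the first library series alone 1 member was called, the GADD45B genes then having adjusted p of 0.141 and 0.0967.

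QuantSeq reads about 1 position per transcript whatever its length, so levels were set side by side between the members as a description. Reads that match more than 1 copy, whose treatment is not given, could still shift the order, and this was not tested. In untreated embryos at 4 hpf the order was GADD45B ENSDARG00000013576, GADD45B ENSDARG00000027744, GADD45A ENSDARG00000043581, GADD45G ENSDARG00000019417 and GADD45A ENSDARG00000104571. The lowest library of each of the first 3 genes lay above the highest library of the next in this order. The ranges of GADD45G ENSDARG00000019417 (2.16 to 5.52 CPM) and GADD45A ENSDARG00000104571 (0.864 to 4.39 CPM) overlapped. At 3 hpf GADD45B ENSDARG00000013576 led again with a lowest library of 14.3 CPM, while the ranges of GADD45B ENSDARG00000027744, GADD45A ENSDARG00000104571 and GADD45G ENSDARG00000019417 overlapped.

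Actinomycin D embryos held few GADD45 counts at 3 hpf, apart from those of GADD45A ENSDARG00000104571. GADD45B ENSDARG00000013576 had 0, 1, 0 and 1 counts in replicates 1 to 4, against 78, 116, 49 and 46 counts in untreated embryos, and stands here without a test. GADD45B ENSDARG00000027744 had 0 counts in every actinomycin D library and 25, 30, 11 and 21 in the untreated ones. It was at least 27.0-fold lower, taking 3 counts over the actinomycin D group as the floor, and was called by edgeR (adjusted p 0.0151). With the library set as a block, which the pairing check also backs for these groups, the adjusted p was 0.0655, and the call was also lost when untreated replicate 2 or any 1 of the actinomycin D libraries was left out.

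The A and G genes at 3 hpf were nearer the floor. GADD45A ENSDARG00000043581 had 1 count over the actinomycin D libraries and 13 over the untreated ones, a ratio of 12.1 (exact 95% interval 1.82 to 514, counting error only) that did not pass (edgeR adjusted p 0.294). GADD45G ENSDARG00000019417 had 4 counts against 58 (edgeR adjusted p 0.104), and without untreated replicate 3, its lowest untreated library, the adjusted p was 0.0232. GADD45A ENSDARG00000104571 was present in actinomycin D embryos at 1.99, 14.5, 4.55 and 2.24 CPM, a range that enclosed the untreated one. Its log2 difference was -0.11 (SE 0.691, adjusted p 1). In all, 1 of the 4 members tested in this comparison was called lower, beside 0.409% of all tested genes.

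By 4 hpf, 4 of the 5 tested members were lower in actinomycin D than in untreated embryos by edgeR's test, where 7.12% of all tested genes were called lower and 4.4% higher, and the count was 4 in each fit that left out 1 library. Among the 4, GADD45A ENSDARG00000043581 and GADD45G ENSDARG00000019417 had passed the filter mainly through untreated libraries, which limits their calls and this count. GADD45B ENSDARG00000013576 had 0, 0, 0 and 8 counts with actinomycin D against 259, 192, 250 and 183 in untreated embryos. Each actinomycin D library was far below each untreated one, with a 117-fold ratio of pooled CPM (edgeR adjusted p 1.39e-06). GADD45B ENSDARG00000027744 had 0, 0, 0 and 9 counts against 90, 84, 75 and 72, a ratio of 37.9 (adjusted p 3.90e-05). All counts of both genes in this group came from replicate 4, the library that also held more zygotic RNA, and the part of that library in the ratios is shown by leaving it out. Without it the genes were at least 225-fold and at least 81.7-fold lower, against 3 counts over the remaining 3 libraries.

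Among the actinomycin D libraries at 4 hpf there was 1 count of GADD45A ENSDARG00000043581, also in replicate 4, against 100 in untreated embryos. The gene was 106-fold lower (exact 95% interval 18.6 to 4237, counting error only, edgeR adjusted p 2.13e-06). GADD45G ENSDARG00000019417 had 2 counts against 39, a ratio of 20.7 (interval 5.36 to 177, adjusted p 0.0133). GADD45A ENSDARG00000104571 was again the exception in level, at 0.466, 11.5, 1.86 and 2.46 CPM in actinomycin D embryos. Its range took in the whole untreated range, and the 2.12-fold higher pooled level with actinomycin D did not pass (adjusted p 0.589).

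Within actinomycin D embryos none of the tested members was called between 3 and 4 hpf by edgeR, where 10.9% of all tested genes were called. GADD45B ENSDARG00000027744 went from 0 to 9 counts (unadjusted p 0.0471, adjusted p 0.193). DESeq2 called this gene alone among the members (adjusted p 0.0371), on the counts of replicate 4. GADD45A ENSDARG00000104571 had a log2 difference of -0.60 (SE 0.741, adjusted p 0.684), the sign of the untreated difference.

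Oligomycin embryos at 3 hpf held RNA of both GADD45B genes at levels that overlapped with those of untreated embryos. GADD45A ENSDARG00000104571 was at 4.50 to 14.1 CPM with oligomycin and at 4.67 to 8.30 CPM without. GADD45A ENSDARG00000043581 was at the floor in every oligomycin library, with at most 3 counts, so nothing is read from its overlap. GADD45B ENSDARG00000013576 was at 10.2, 54.9, 11.6 and 26.1 CPM with oligomycin, a range that enclosed the untreated one. GADD45B ENSDARG00000027744 was at 1.64, 13.3, 4.50 and 7.93 CPM, also around the untreated range, with a log2 difference of -0.21 (SE 0.593, edgeR adjusted p 1). GADD45G ENSDARG00000019417 had 0, 6, 1 and 10 counts against 24, 23, 2 and 9, a log2 difference of -1.74 (SE 0.763, unadjusted p 0.0314, adjusted p 1). No gene of the table was called in this comparison, 0% of those tested, by edgeR or by DESeq2. Of the 11238 genes tested, 486 by edgeR and 464 by DESeq2 had an unadjusted p under 0.05. Both numbers are below the 0.05 share that chance alone would give.

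Set beside actinomycin D at 3 hpf, the contrast that led to the choice of the family, the oligomycin libraries held 274 counts of GADD45B ENSDARG00000013576 against 2, a ratio of 135 (exact 95% interval 37.0 to 1119, counting error only). They held 72 counts of GADD45B ENSDARG00000027744 against 0, at least 23.6-fold more. GADD45G ENSDARG00000019417 had 17 counts against 4, with overlapping libraries, and GADD45A ENSDARG00000104571 had 74 against 58. In this contrast 0.151% of all tested genes were called, and nothing is read from it for the family.

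At 4 hpf GADD45A ENSDARG00000043581 was the only tested member called between oligomycin and untreated embryos in the fit to all groups. It had passed the filter through the untreated 4 hpf libraries, where it was highest, which limits this call. GADD45A ENSDARG00000043581 had 8, 10, 4 and 21 counts with oligomycin against 26, 23, 26 and 25, which is 3.21, 5.37, 1.41 and 6.30 CPM against 11.2, 14.4, 9.57 and 8.56 CPM. Its libraries did not overlap, and with oligomycin the gene was at 4.07 ± 2.20 CPM against 10.9 ± 2.57 CPM (SD, n = 4), lower with a log2 difference of -1.40 ± 0.441 (SE; edgeR adjusted p 0.0242). The call was lost when untreated replicate 1 or 2 or oligomycin replicate 1 or 3 was left out, with adjusted p between 0.0715 and 0.0955. Within the first and the second library series the differences were -1.58 and -1.15, neither called.

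Neither copy of GADD45B passed in this fit. GADD45B ENSDARG00000027744 was at 7.62, 15.0, 18.3 and 19.8 CPM with oligomycin, below every untreated library, whose lowest value was 24.7 CPM. Its log2 difference of -1.21 (SE 0.518) did not pass in the fit to all groups (edgeR adjusted p 0.102) and passed when the 2 groups alone were fitted (-1.18, adjusted p 0.0255). GADD45B ENSDARG00000013576 was at 63.4, 89.7, 67.0 and 77.8 CPM, within the untreated range of 62.7 to 120 CPM. Its log2 difference was -0.37 (SE 0.421, edgeR adjusted p 0.576).

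GADD45A ENSDARG00000104571 was at 3.21, 14.5, 4.23 and 2.40 CPM in oligomycin embryos at 4 hpf, overlapping with the untreated range in replicates 1, 3 and 4. Its log2 difference of 1.69 (SE 0.837) did not pass (edgeR adjusted p 0.157). In each library set the oligomycin library was above the untreated one, though the pairing check did not back sets for these groups. The fit with the set as a block, given at the end, called the gene higher. GADD45G ENSDARG00000019417 had 0, 9, 4 and 9 counts against 5, 8, 15 and 11, a log2 difference of -0.92 (SE 0.763, adjusted p 0.420). Thus, in the fit to all groups, 1 of the 5 tested members was called lower with oligomycin at 4 hpf and none higher. Of all tested genes 9.05% were called lower and 12.3% higher. All 5 markers of the enveloping layer, the outer epithelium of the blastula, were detected in both groups, with summed levels of 67.8 to 310 CPM with oligomycin and 522 to 1002 CPM without. The 9 zygotic blastula genes summed to 322 to 1057 CPM with oligomycin and 1000 to 2169 CPM without, but differed among themselves. In counts with oligomycin and without, tbx16 had 1886 and 7350, vox 1251 and 2290 and ved 230 and 654. For tbxta these were 198 and 447, and for vent 148 and 256. However, ndr2 had 229 and 237, mxtx2 1704 and 1733, ndr1 211 and 162 and irx7 1146 and 812. The 3 yolk syncytial layer markers overlapped, with sums of 105 to 222 CPM with oligomycin and 173 to 240 CPM without. The part of these levels in the GADD45 differences was not tested.

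**Figure D2:**
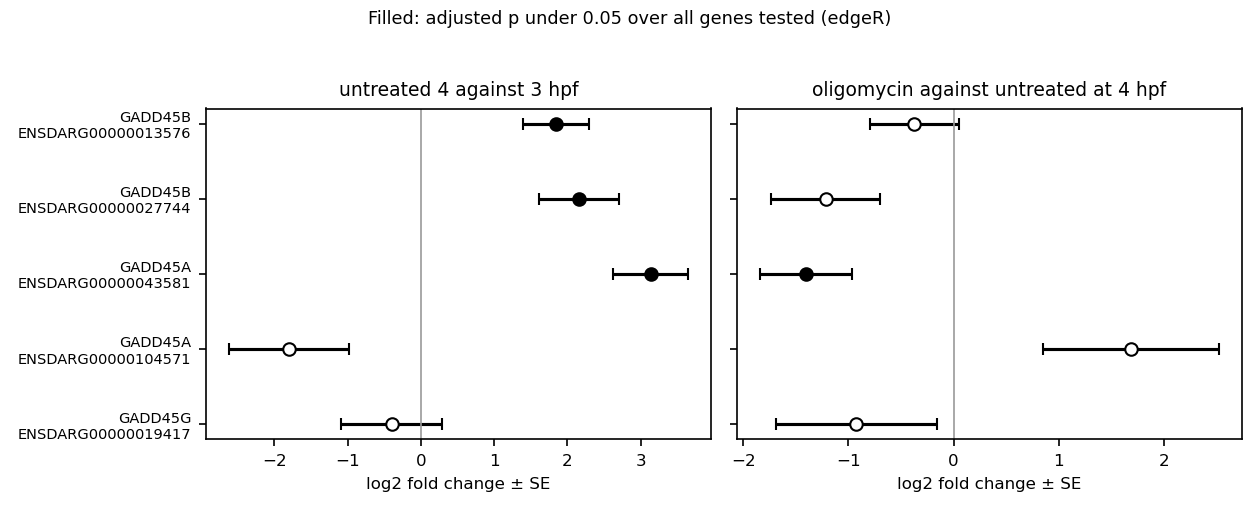
Log2 fold change ± SE of the 5 tested members for untreated embryos at 4 against 3 hpf (left) and for oligomycin against untreated embryos at 4 hpf (right); filled points have an adjusted p under 0.05 over all genes tested. On the left 3 members are called, between 1.84 and 3.14, and on the right GADD45A ENSDARG00000043581 alone, at -1.40. Both panels show the fit without the library set as a block. The panels share the untreated 4 hpf libraries and are not independent.

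Compared with actinomycin D at 4 hpf, oligomycin embryos held more RNA of 3 of the 5 tested members by edgeR's test, where 9.79% of all tested genes were called higher and 2.14% lower. GADD45B ENSDARG00000013576 had 774 counts against 8, a 93.3-fold ratio (adjusted p 1.99e-05), and GADD45B ENSDARG00000027744 165 against 9, a ratio of 17.7 (adjusted p 0.00194). Without actinomycin D replicate 4 these were at least 179-fold and at least 38.1-fold higher. GADD45A ENSDARG00000043581 had 43 counts against 1, a ratio of 41.5 (exact 95% interval 7.05 to 1675, counting error only, adjusted p 0.000432). GADD45G ENSDARG00000019417, with 22 counts against 2, did not pass (adjusted p 0.0888), and without oligomycin replicate 1, which had 0 counts, its adjusted p was 0.0462. For GADD45A ENSDARG00000104571 the libraries overlapped and the log2 difference was 0.59 (SE 0.746, adjusted p 0.671).

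Between 3 and 4 hpf within oligomycin embryos no tested member was called, where 0.516% of all tested genes were. GADD45A ENSDARG00000043581 went from 2, 3, 1 and 1 counts to 8, 10, 4 and 21, with no overlap in CPM, a log2 difference of 2.51 (SE 0.604, edgeR adjusted p 0.0553). With the library set as a block, which the pairing check backs here, it was 2.58 with an adjusted p of 0.0227. GADD45B ENSDARG00000027744 had a log2 difference of 1.15 (SE 0.569, adjusted p 0.709). The picked gene, GADD45B ENSDARG00000013576, is described only, with 25.7 ± 20.7 CPM at 3 hpf and 74.4 ± 11.8 CPM at 4 hpf (SD, n = 4) and no overlap between the times. Neither interaction, which asks whether the effect of an inhibitor differed between the times, was called for a tested member, beside 1.02% of all tested genes for oligomycin and 1.73% for actinomycin D. For oligomycin the interaction had an unadjusted p of 0.183 or more in each of the 4 members tested, and for actinomycin D of 0.168 or more.

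The balance between the GADD45B copies was examined as a share chosen after the values had been seen, so no test of it is given. Of the counts of both genes, GADD45B ENSDARG00000027744 took 25.8, 30.4, 23.1 and 28.2% in untreated libraries at 4 hpf and 10.7, 14.4, 21.5 and 20.3% with oligomycin. No oligomycin library reached the lowest untreated share, and the means were 26.9 ± 3.17% and 16.7 ± 5.07% (SD, n = 4). The difference was -10.2 percentage points over all libraries, -15.6 points in the first library series and -4.76 in the second.

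At 3 hpf the untreated share was 23.6 ± 5.70% (SD, n = 4) and the oligomycin share 21.2 ± 5.97%, the latter from libraries that led to the choice of the family. Since the copies are related in sequence, reads that match both could be split or dropped by the counting, and how such reads were treated is not given in the sources used here.

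**Figure D3:**
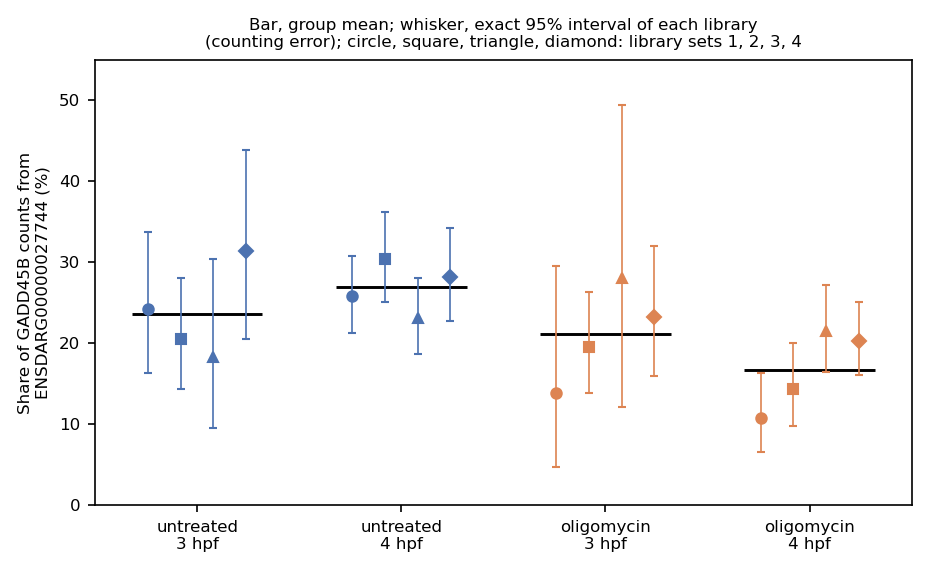
Share of the counts of both GADD45B genes that came from ENSDARG00000027744, in percent, for each untreated and oligomycin library (bar, group mean; whisker, exact 95% interval covering counting error only; marker shape, library set). At 4 hpf the 4 oligomycin libraries, 10.7 to 21.5%, lie below the 4 untreated ones, 23.1 to 30.4%, while the shares overlap at 3 hpf.

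Library sets left a mark on GADD45A ENSDARG00000104571. Its highest library was that of set 2 in all 6 groups, with 8.30 and 4.39 CPM in untreated, 14.1 and 14.5 CPM in oligomycin and 14.5 and 11.5 CPM in actinomycin D embryos at 3 and 4 hpf. The other 18 libraries ranged from 0.466 to 7.16 CPM. GADD45B ENSDARG00000013576 was highest in set 2 in 4 of the 5 groups above the floor and GADD45B ENSDARG00000027744 in 3 of 5. Set 2 was not the highest throughout for GADD45A ENSDARG00000043581, for which it led in 2 of 3 groups.

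**Figure D4:**
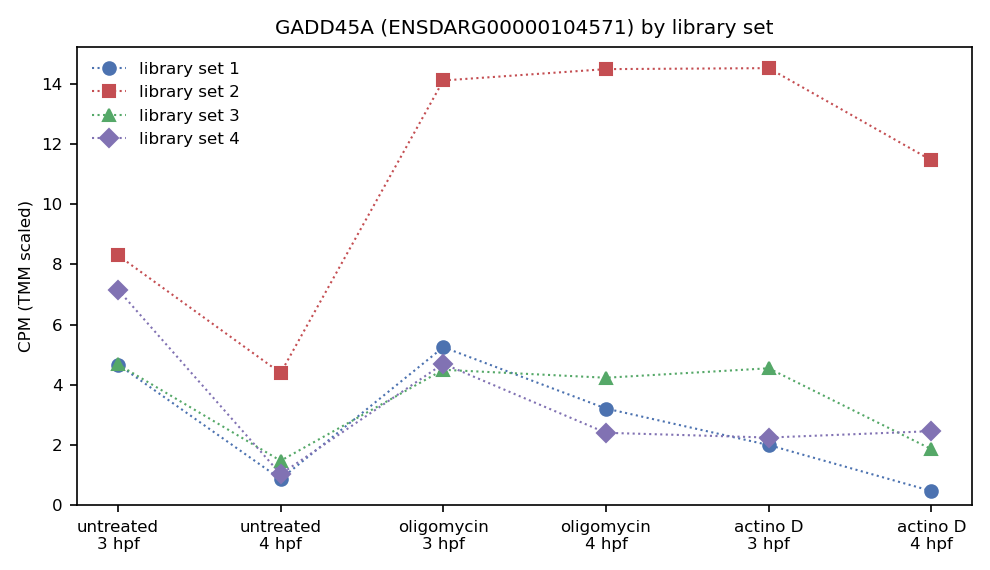
CPM of GADD45A ENSDARG00000104571 in each library by group, with the libraries of a set joined by a dotted line as a guide only. Set 2 lies highest in every group, between 4.39 and 14.5 CPM, and each set is lower at 4 than at 3 hpf in untreated embryos.

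Genes of most similar pattern were the 5 with a symbol whose log2 CPM had the highest Pearson r with a member over the 24 libraries, a measure that shares the libraries and their depth and has no test. For GADD45B ENSDARG00000013576 these were mxtx2 (r 0.990), grhl3 (0.983), vox (0.980), irx7 (0.975) and lft2 (0.973), and for GADD45B ENSDARG00000027744 drll.3 (0.987), GATA3 (0.983), foxd5 (0.979), sox19a (0.979) and IER5L (0.978). GADD45A ENSDARG00000043581 had sult6b1 (0.974), drl (0.966), CXCL12 (0.963), si:ch211-190h11.2 (0.962) and lrwd1 (0.960). The levels of mxtx2 ran from 50.6 to 185 CPM between 3 and 4 hpf in untreated and from 47.5 to 160 CPM in oligomycin embryos, with 0.107 and 2.28 CPM in actinomycin D. The part of such low actinomycin D levels in these r values was not tested.

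The remaining members had lower r with their neighbours. They held 308 and 142 counts over all libraries, while GADD45A ENSDARG00000043581, with r of 0.960 to 0.974, held 165. The part of counting error in the lower r was not tested. GADD45A ENSDARG00000104571 was nearest to NAXE (r 0.876), sertad3 (0.870), HBEGF (0.864), NDRG1 (0.857) and ITPA (0.849). NAXE was at 154 and 115 CPM in untreated and at 155 and 137 CPM in actinomycin D embryos at 3 and 4 hpf. GADD45G ENSDARG00000019417 was nearest to FZD8 (0.889), si:dkey-235h8.1 (0.877), batf2 (0.866), ier2a (0.863) and foxi1 (0.862). Between the members themselves r was 0.973 for the GADD45B pair and -0.19 for the GADD45A pair.

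Genes of the pathways linked to GADD45 in the background above, and early response genes, were described from 5 lists. Not all of the listed genes encode partners of GADD45 proteins. Of 15 identifiers of the MAP kinase relay 9 were tested, and for untreated embryos 2 were called higher at 4 than at 3 hpf and none lower, beside 12.8% higher and 14.6% lower over all tested genes. MAPK12 ENSDARG00000006409, a stress-activated MAP kinase, rose from 2.66 ± 2.18 CPM (SD, n = 4) to 24.5 ± 8.86 CPM, by 3.21 ± 0.531 in log2 (SE; edgeR adjusted p 0.00014). It fell by 2.17 with oligomycin at 4 hpf (SE 0.489, adjusted p 0.00306), and by 2.77 without oligomycin replicate 4. The list holds another identifier with this symbol, ENSDARG00000042021, which was not among the called genes in either comparison. The kinase that GADD45 proteins bind, map3k4, was at 50.3 ± 4.49 CPM at 3 hpf and 63.5 ± 4.98 CPM at 4 hpf, a log2 difference of 0.33 (edgeR adjusted p 0.0443) that did not pass when any 1 of the 8 untreated libraries was left out (adjusted p 0.0555 to 0.203).

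Of 8 cell cycle partners tested, 2 were called higher, 1 lower and 5 not in untreated embryos with time, beside the same 12.8% and 14.6% over all tested genes. The CDK inhibitor gene cdkn1a rose from 3.17 ± 2.91 CPM (SD, n = 4) to 13.7 ± 4.83 CPM, by 2.10 ± 0.571 in log2 (SE; edgeR adjusted p 0.00765), and by 2.89 without untreated 3 hpf replicate 2. It had 8 counts in actinomycin D embryos at 4 hpf against 123 in untreated ones. CDK1, the mitotic kinase, fell by 0.67 (SE 0.189, adjusted p 0.00951) with time in untreated embryos. The smallest p with time was that of cdc25b, which rose by 0.66 in log2 (edgeR adjusted p 4.59e-05). With oligomycin at 4 hpf 1 of the 8 was called higher and 2 lower, beside 12.3% and 9.05% over all tested genes. Higher was CDK1, by 0.79 (SE 0.189, adjusted p 0.00411). Lower were cdc25b, by 0.60 (adjusted p 0.000211), and PCNA, by 0.38 (SE 0.121, adjusted p 0.0246). The PCNA call was lost when untreated replicate 1 or 2 or oligomycin replicate 1, 3 or 4 was left out.

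The p53 pathway list had 20 tested genes, of which 10 were called higher and 4 lower at 4 hpf in untreated embryos (12.8% and 14.6% over all tested genes). That is 14 in all, and 9 without untreated 4 hpf replicate 1 or without untreated 3 hpf replicate 4. In it sesn3 rose by 5.26 (SE 0.773, edgeR adjusted p 4.05e-05), and by 4.59 without untreated 4 hpf replicate 1. Its spread at 4 hpf was wide, with 30.0 ± 26.2 CPM (SD, n = 4) against 0.743 ± 0.720 CPM at 3 hpf. TP53INP1 rose by 2.39 (SE 0.382, adjusted p 7.85e-05), while MDM4, an inhibitor of p53, fell by 1.07 (SE 0.175, adjusted p 8.80e-05). With oligomycin at 4 hpf 4 were called higher and 5 lower, beside 12.3% and 9.05% over all tested genes, and 5 in all without untreated replicate 1. Among them MDM4 was at 0.87 (SE 0.175, adjusted p 0.00101) and baxb at 1.71 (SE 0.374, adjusted p 0.00201). TP53INP1 was at -1.57 (SE 0.363, adjusted p 0.00328). The median log2 difference of the list was 0.44 with time in untreated embryos and -0.34 with oligomycin at 4 hpf, beside 0.0018 and -0.036 over all tested genes.

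Of the DNA demethylation list, 8 of 15 identifiers were tested, with 1 called higher and 1 lower in untreated embryos with time, near the shares of 12.8% and 14.6% over all tested genes. These 2 calls became 4 without untreated 3 hpf replicate 1 or with the library set as a block, and 1 without untreated 4 hpf replicate 1. DNMT1, the maintenance methyltransferase, fell from 848 ± 69.9 CPM (SD, n = 4) to 428 ± 66.4 CPM, a log2 difference of -0.99 ± 0.121 (SE; edgeR adjusted p 6.58e-06). The gene called higher, dnmt3ba, rose by 0.61 (SE 0.171, edgeR adjusted p 0.00949). With oligomycin at 4 hpf 2 of the 8 were called higher than in untreated embryos and 1 lower, beside 12.3% and 9.05% over all tested genes. Higher were DNMT1, by 0.93 (SE 0.121, adjusted p 2.14e-05), and mbd4, by 0.78 (SE 0.237, adjusted p 0.0195). Lower was dnmt3ba, by 0.56 (SE 0.171, adjusted p 0.0209).

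Early response genes, which like GADD45 genes are induced fast by stress and signals, had 16 of 24 tested. In untreated embryos 8 were called higher and 1 lower with time, where 12.8% and 14.6% of all tested genes were. The smallest p was that of KLF6, the 1 called lower, at -0.78 (SE 0.127, edgeR adjusted p 8.32e-05). TRIB3 followed at 1.02 (SE 0.169, edgeR adjusted p 9.61e-05). After them ier2b rose from 3.66 ± 1.81 CPM (SD, n = 4) to 35.7 ± 12.2 CPM, by 3.27 ± 0.565 in log2 (SE; edgeR adjusted p 0.00019). With actinomycin D at 4 hpf 12 were lower and 1 higher, beside 7.12% and 4.4% over all tested genes, with klf2a at 4.36 ± 2.07 against 161 ± 27.1 CPM (adjusted p 7.22e-06) and KLF6 higher by 0.90 (SE 0.127, adjusted p 1.36e-05). With oligomycin at 4 hpf 2 were higher and 4 lower, beside 12.3% and 9.05% over all tested genes, and 3 in all without untreated replicate 1 or without oligomycin replicate 1. In this comparison KLF6 had the smallest p and was higher by 0.75 (SE 0.128, edgeR adjusted p 0.000239). Lower were atf4b, by 2.01 (SE 0.524, adjusted p 0.00757), and TRIB3, by 0.60 (SE 0.167, adjusted p 0.0112). In the second library series alone, with 2 libraries per group, edgeR called 0 genes of each list with oligomycin at 4 hpf, where it called 157 of 11414 tested genes higher and 7 lower and 1441 had an unadjusted p under 0.05.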

How the data were processed

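The deposited value is a read count for each Ensembl identifier, per the file headers. Counts are whole and their totals differ between libraries, so no normalization by the authors was assumed. The submitters' processing notes name Bowtie2 2.3.4.1, featureCounts, Subread 1.6.2 and the build GRCz11. The annotation release, strand setting, treatment of multi-mapping reads and use of molecular identifiers are not given in the sources used here, so antisense or near-identical copies could share reads. PCR duplicates are not independent molecules, and intervals and floors cover counting error only.

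Symbols came from an Ensembl symbol table (29201 of 32520 identifiers matched). RefSeq lists 6 GADD45 genes in GRCz12tu, which could not be matched to the 7 identifiers. No sequences or coordinates were used here.

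Counts were analysed with edgeR 4.0.16 in R 4.3.3. filterByExpr by group kept 11238 genes, TMM scaled the libraries, and the robust quasi-likelihood test used all 24 libraries, each group having its mean. Benjamini-Hochberg adjustment ran over all genes tested, with a call at an adjusted p under 0.05. CPM divide by the TMM-scaled total of tested genes. Where a group held 0 counts, folds used 3 counts over the group as a lower bound, and with 1 to 3 counts an exact 95% interval is given. With both groups at 3 counts or fewer in every library no fold was computed. Exact intervals came from scipy 1.17.1. Similar genes used log2 CPM with a prior count of 2. The text names all members and the 5 most similar genes per member. List genes were named from the 3 called genes of smallest p per comparison, not all of which are given. The fit was checked on simulated counts drawn without an effect of library set, so the check does not cover such an effect.

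Members, lists and comparisons were chosen with earlier results of these data known. Replicates were numbered in accession order, which follows the library sets in the titles. Over the 9 comparisons, deviations of same-set libraries from their group means had a correlation over 0.1 in 34 of 36 pairs (median 0.442). Each pair passed in 7 of 9 comparisons, which were read as paired. Oligomycin against untreated at 3 and at 4 hpf were not. No library repeated another of its group, the lowest chi-square per gene between them being 3.60. Alternatives were DESeq2 1.42.0, other scalings and filters, only the groups compared, the set as block, each library series alone, and leaving out each library.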

Additional observations from a re-analysis of the deposited data

Results flagged for a closer look

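A library stood apart from the other 3 of its group, by Dixon's test at the 95% level, in 4 of 24 groups of member values examined. The chance rate of about 1 in 20 does not hold for counts at the floor. The flags also share a library or a library set, so they are not independent and are given as a description. GADD45A ENSDARG00000104571 was at 14.1 CPM in oligomycin 3 hpf replicate 2, against 4.50 to 5.25 CPM in the other replicates. The same gene was at 14.5 CPM in oligomycin 4 hpf replicate 2, against 2.40 to 4.23 CPM. Both libraries belong to library set 2, in which the gene was highest in each of the 6 groups. GADD45B ENSDARG00000013576 was at 2.81 CPM and GADD45B ENSDARG00000027744 at 3.16 CPM in actinomycin D 4 hpf replicate 4. The other replicates had 0 counts, so the test was bound to flag any count there. In that library the zygotic blastula genes summed to 56.8 CPM, and the enveloping layer markers to 20.0 CPM, against 0.466 to 1.55 CPM in the other replicates. The share of GADD45B counts from ENSDARG00000027744 in that library was 52.9% of 17 counts (exact 95% interval 27.8 to 77.0, counting error only).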

How the results depend on the processing

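The number of members lower in actinomycin D than in untreated embryos at 4 hpf was 4, and 3 with only the groups compared, where GADD45G ENSDARG00000019417 was not tested, or in either series, where that gene's adjusted p was 0.252 and 0.0532. The number higher with oligomycin than with actinomycin D at 4 hpf was 3, and 2 with only the groups compared, where GADD45A ENSDARG00000043581 was not tested, or in the second series, where its adjusted p was 0.0722. For untreated embryos with time the count called higher went from 3 to 1 in the first library series alone. There GADD45A ENSDARG00000104571 was called lower with only the groups compared, with the set as block and in the second series alone. With oligomycin against untreated at 4 hpf the count went from 1 to 2 with only the groups compared, where GADD45B ENSDARG00000027744 was also called lower. It was 2 as well with the set as block, where GADD45A ENSDARG00000104571 was called higher. The count was 0 in either series, and 0 to 1 leaving out 1 library. With actinomycin D against untreated at 3 hpf it went from 1 to 2 by DESeq2, to 0 with no filter, with the block or in either series, and was 0 to 2 leaving out 1 library. Between the times, DESeq2 or the block gave 1 in oligomycin embryos (0 to 1 leaving out 1 library), and DESeq2 gave 1 in actinomycin D embryos, where edgeR had 0. The GADD45B share difference was -15.6 and -4.76 points in the series. The cause was not tested.

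Signs turned for values that had not passed. In the second series alone, 3 hpf oligomycin against untreated became -0.36 for GADD45A ENSDARG00000104571, 0.31 for GADD45B ENSDARG00000027744, 0.20 for GADD45G ENSDARG00000019417 and 0.80 points for the GADD45B share. There the untreated change of GADD45G ENSDARG00000019417 became 1.30 and its oligomycin interaction -1.29. In the first series alone GADD45A ENSDARG00000104571 became 0.37 for actinomycin D against untreated at 3 hpf. Leaving out 1 library gave for GADD45A ENSDARG00000104571 a range of -1.13 to 0.24 with time in oligomycin and -1.79 to 0.35 in actinomycin D embryos. For oligomycin against untreated at 3 hpf it gave -0.36 to 0.38, for actinomycin D against untreated -1.05 to 0.18 at 3 hpf and -0.058 to 1.72 at 4 hpf, and for oligomycin against actinomycin D at 4 hpf -0.19 to 1.79. At 3 hpf, oligomycin against untreated, it gave -0.73 to 0.14 for GADD45B ENSDARG00000027744 and -4.73 to 0.12 points for the share. GADD45G ENSDARG00000019417 ranged from -0.13 to 1.05 with time in oligomycin and from -0.82 to 0.79 for the actinomycin D interaction.

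With the library set as block, oligomycin against untreated at 4 hpf, where the sets did not pair, gave 1.57 (edgeR adjusted p 0.00826) for GADD45A ENSDARG00000104571. Beside the block values given above it changed no other call of a member. Alternatives that left a group without counts gave no estimate, and a promoter motif search was not run. In a single library a level under what 3 counts are worth, 0.881 to 1.93 CPM, is at the floor.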
